A study of Mus musculus with 12 samples.

Results

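Pyroptosis and necroptosis are 2 inflammatory forms of regulated cell death, and 10 genes of their core machinery were followed in the kidney of mice with or without augmenter of liver regeneration (ALR, gene Gfer) in the proximal tubule. The genes were taken by name, Gsdmd, Casp1, Casp4, Casp8, Nlrp3, Pycard, Ripk1, Ripk3, Mlkl and Il18, and each was found once among the 55487 gene rows of the count table. RNA-seq was done on kidney cortex from mice of a mixed C57BL/6 background, 6 to 8 weeks old, with 3 libraries in each of 4 groups. Control mice (ALR flox/flox, called WT in the labels) were sham operated (Ctrl) or had both kidneys made ischemic for 22 min, with reperfusion for 24 h (Ctrl+I/R). Knockout mice (ALR flox/flox with Ggt1-Cre, called ALR knockdown in the labels) were sham operated (PT-KO) or had the same injury (PT-KO+I/R). All 4 groups therefore carried the floxed allele, and Cre was driven in proximal tubular cells only, while every library held RNA of the whole cortex. Fewer cells of a type and less RNA per cell cannot be told apart in such libraries.

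In pyroptosis, a sensor such as NLRP3 binds the adaptor ASC (gene Pycard), which recruits and activates caspase-1. Caspase-1, or caspase-11 (gene Casp4) after sensing cytosolic lipopolysaccharide, cuts gasdermin D into a fragment that forms pores in the plasma membrane, and caspase-1 also matures the cytokine interleukin-18. In necroptosis, RIPK1 downstream of death receptors engages RIPK3, which phosphorylates the pore-forming pseudokinase MLKL, while caspase-8 in the same complex cleaves RIPK1 and RIPK3 and holds the pathway in check. Both pathways have been studied in ischemic kidney injury, in tubular cells and in the leukocytes that enter the tissue.

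The libraries held 12165089 to 23123693 counts. Xist, the RNA of the inactive X chromosome, and the Y-linked Ddx3y showed that Ctrl libraries 1 and 2 were from female mice, with 22402 and 19755 Xist counts, and that the other 10 libraries, with 11 Xist counts or fewer, were male, so sex moved with each comparison that used Ctrl. Gfer, the targeted gene, was not called lower in the knockout at the level of the whole cortex. It was at 9.97 to 17.1 CPM in PT-KO and 11.4 to 14.4 CPM in Ctrl (log2 fold change 0.13, SE 0.20, adjusted p = 0.761). After injury each PT-KO+I/R library, at 21.6 to 22.8 CPM, was above each Ctrl+I/R library, at 15.3, 20 and 17.6 CPM, a difference that did not pass the test (0.32, SE 0.13, adjusted p = 0.0723, and 0.11 with library totals, adjusted p = 0.559). Counts over the whole gene therefore do not show the deletion, and PT-KO and PT-KO+I/R stand for the libraries labelled so. The proximal tubule markers stood high in the sham groups, with Slc34a1, a phosphate transporter, at 4476 to 5759 CPM and Lrp2, which encodes megalin, at 4001 to 4927 CPM. Levels are given as CPM, read counts relative to library size, normalized by the trimmed mean of M values (TMM) over the 12 libraries, and differences as log2 fold changes of edgeR's quasi-likelihood test with Benjamini-Hochberg adjusted p-values over all genes tested, a gene being called at an adjusted p under 0.05.

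Between the injured groups, 8 of the 10 genes differed, in both directions. Against Ctrl+I/R, 4 of the 10 genes were lower in PT-KO+I/R (Pycard, Casp1, Nlrp3 and Gsdmd) and 4 were higher (Mlkl, Il18, Casp8 and Ripk1), while Casp4 and Ripk3 did not pass the test. The Ripk1 difference was the smallest of the 8 and was not called with library totals. Over all 15281 genes tested in that comparison, 24.4% were called lower and 22.5% were called higher. The groups did not overlap for 9 of the 10 genes, Casp4 being the exception, nor for 58.7% of all genes tested. With library totals in place of TMM the median of all genes moved by -0.21 on the log2 scale and the split over all genes became 1978 higher and 5080 lower, and among the 10 genes 3 were then higher and 5 lower. In the plot of levels by library, the 2 directions can be read gene by gene.

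**Figure D1:**
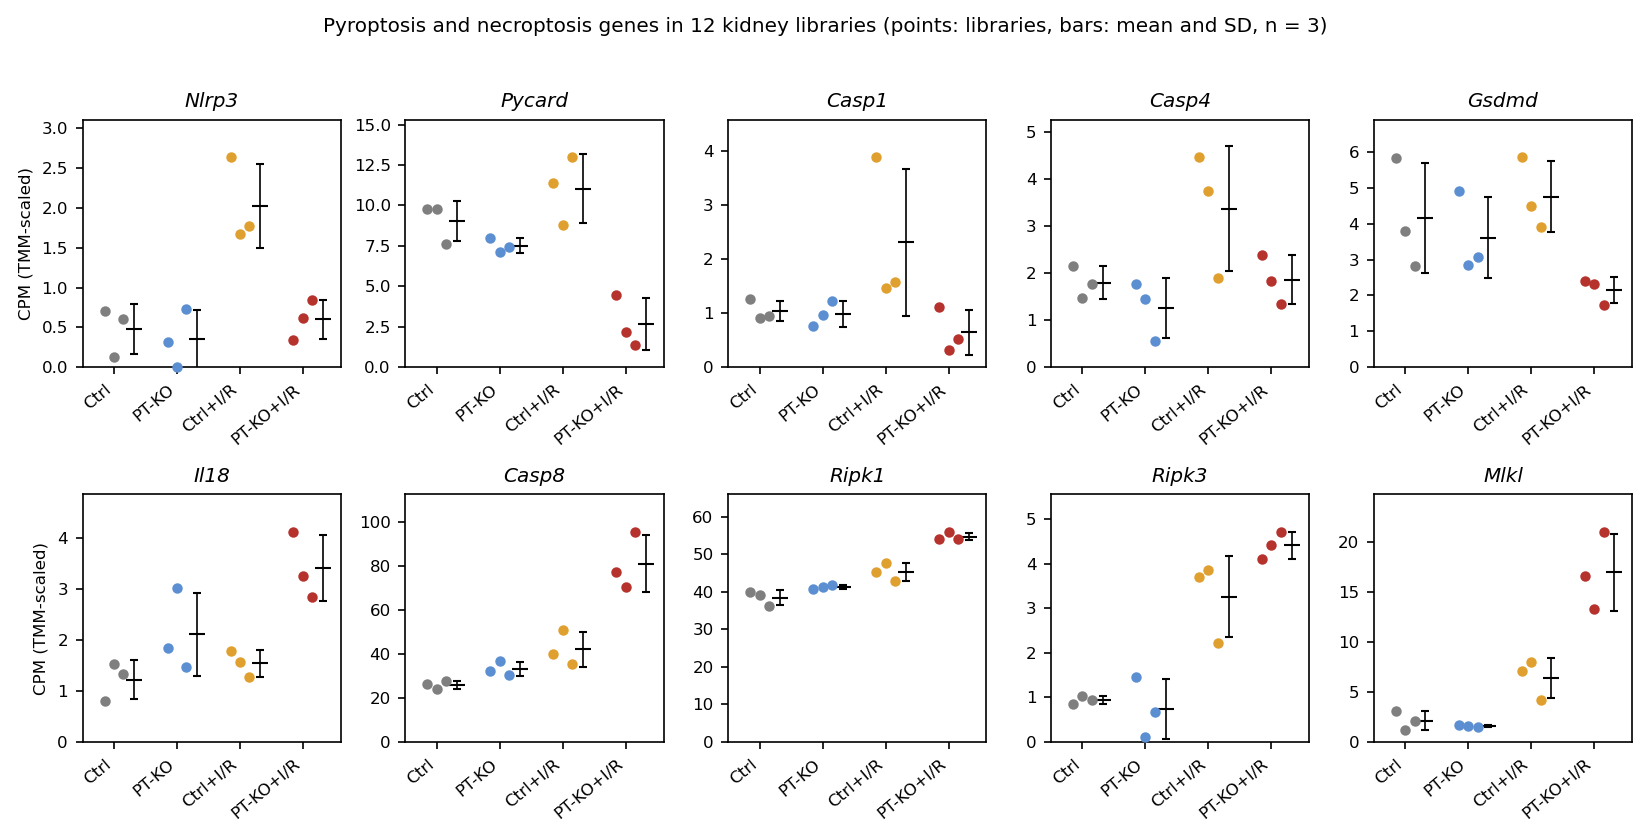
Level of each of the 10 genes in the 12 libraries. The y axis of each panel is CPM after TMM scaling and starts at 0, the x axis gives the group, points are libraries, and the black bars are the mean and SD of 3 libraries. Pycard fell to 1.35 to 4.45 CPM in PT-KO+I/R, below every other library, while Casp8 and Mlkl had their highest levels there.

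Nlrp3 (ENSMUSG00000032691, chr11:59541568-59566956, plus strand, GRCm38), the sensor, was a gene of few counts, 0 to 59 a library. It stood at 0.704, 0.122 and 0.610 CPM in Ctrl, at 0.316, 0 and 0.736 in PT-KO, at 2.64, 1.67 and 1.77 in Ctrl+I/R, and its PT-KO+I/R values were 0.342, 0.623 and 0.838. The 3 Ctrl+I/R libraries were above the other 9. PT-KO+I/R was lower than Ctrl+I/R by 3.30-fold (log2 fold change -1.72, SE 0.40, adjusted p = 0.00969), and the difference kept its call in each of 6 fits that left out 1 library. A fit to all 12 libraries gave -1.72 with an adjusted p of 0.0529.

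Pycard (ENSMUSG00000030793, chr7:127989708-127993867, minus strand), the adaptor that links sensors to caspase-1, was at 9.75, 9.79 and 7.59 CPM in Ctrl and 8.01, 7.11 and 7.42 CPM in PT-KO. After I/R it was at 11.4, 8.77 and 12.97 CPM in Ctrl mice and at 4.45, 2.18 and 1.35 CPM in PT-KO mice. All 3 PT-KO+I/R libraries lay below all 9 others. PT-KO+I/R was 4.28-fold lower than Ctrl+I/R (log2 fold change -2.10, SE 0.39, adjusted p = 0.00374), and 2.92-fold lower than PT-KO (-1.55, SE 0.35, adjusted p = 0.00281). Both calls held in every fit with 1 library left out.

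Casp1 (ENSMUSG00000025888, chr9:5298517-5307265, plus strand), which encodes the caspase that matures interleukin-1 beta and interleukin-18, had 7 to 87 counts a library. Its levels were 1.26, 0.918 and 0.942 CPM in Ctrl, 0.757, 0.969 and 1.23 in PT-KO, 3.89, 1.46 and 1.58 in Ctrl+I/R and 1.11, 0.312 and 0.516 in PT-KO+I/R. Ctrl+I/R library 1 stood apart from its group, and the 2 injured groups did not overlap. The difference between them was 3.85-fold (log2 fold change -1.95, SE 0.59, adjusted p = 0.0273). It was not called without Ctrl+I/R library 1 (-1.32, adjusted p = 0.109), without PT-KO+I/R library 3 (-1.54, adjusted p = 0.101) or without PT-KO+I/R library 4 (-1.82, adjusted p = 0.099).

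Casp4 (ENSMUSG00000033538, chr9:5308828-5336783, plus strand), the neighbour of Casp1 and the caspase of the noncanonical route, did not pass the test in any of the 5 comparisons. It was at 4.47, 3.76 and 1.90 CPM in Ctrl+I/R and 2.40, 1.83 and 1.35 CPM in PT-KO+I/R, and the groups overlapped (log2 fold change -0.89, SE 0.38, adjusted p = 0.0845). Without Ctrl+I/R library 4 the difference was called (-1.17, adjusted p = 0.0225), as it was with library totals (-1.09, adjusted p = 0.0459).

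Gsdmd (ENSMUSG00000022575, chr15:75862327-75867408, plus strand), the pore former cut by both caspases, was at 5.85, 4.49 and 3.92 CPM in Ctrl+I/R and at 2.40, 2.32 and 1.74 CPM in PT-KO+I/R. Every PT-KO+I/R library was below every library of the other 3 groups, whose lowest value was 2.83 CPM. The difference from Ctrl+I/R was 2.23-fold (log2 fold change -1.16, SE 0.26, adjusted p = 0.00833) and held in each fit with 1 library left out. The difference from PT-KO was smaller (-0.75, SE 0.29, adjusted p = 0.0426). It was not called without PT-KO library 1 (-0.47, adjusted p = 0.194) or library 4 (-0.86, adjusted p = 0.0528), or without PT-KO+I/R library 2 (-0.81, adjusted p = 0.0508), 3 (-0.81, adjusted p = 0.0792) or 4 (-0.62, adjusted p = 0.141), and DESeq2 did not call it (adjusted p = 0.103).

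Il18 (ENSMUSG00000039217, chr9:50554827-50581840, plus strand), the cytokine that caspase-1 matures, went the other way from Casp1. It was at 1.79, 1.57 and 1.27 CPM in Ctrl+I/R and 4.11, 3.25 and 2.84 CPM in PT-KO+I/R, with no overlap. The difference was 2.17-fold (log2 fold change 1.12, SE 0.27, adjusted p = 0.0121) and held in each fit with 1 library left out. PT-KO was already at 1.83, 3.02 and 1.47 CPM and overlapped with Ctrl, at 0.804, 1.53 and 1.33 CPM (0.80, SE 0.38, adjusted p = 0.324). PT-KO+I/R against PT-KO gave 0.67 (SE 0.31, adjusted p = 0.0825), which was called only without PT-KO library 2 (1.02, adjusted p = 0.019). The gene overlaps with Bco2 on the opposite strand, with no shared exon.

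Casp8 (ENSMUSG00000026029, chr1:58795374-58847503, plus strand), at 394 to 1584 counts a library, was measured with more counts than the inflammasome genes. Its levels were 26.3, 24.1 and 27.8 CPM in Ctrl, 32.4, 36.7 and 30.6 in PT-KO, 39.9, 51.1 and 35.2 in Ctrl+I/R and 77.1, 70.5 and 95.4 in PT-KO+I/R. The PT-KO+I/R libraries were above all others, and Ctrl was below all others. PT-KO+I/R was 1.92-fold higher than Ctrl+I/R (log2 fold change 0.94, SE 0.16, adjusted p = 0.00296) and 2.42-fold higher than PT-KO (1.28, SE 0.12, adjusted p = 1.22e-05).

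Mlkl (ENSMUSG00000012519, chr8:111311797-111338177, minus strand), the executioner of necroptosis, had the largest fold change of the 10 genes between PT-KO+I/R and PT-KO, while Pycard, Casp1 and Nlrp3 differed by more between the injured groups. It was at 3.07, 1.22 and 2.11 CPM in Ctrl and 1.70, 1.56 and 1.47 CPM in PT-KO. It reached 7.10, 8.04 and 4.17 CPM in Ctrl+I/R and 16.6, 13.3 and 21.0 CPM in PT-KO+I/R. The 4 groups fell in 3 steps, the sham groups lowest and overlapping, Ctrl+I/R above them and PT-KO+I/R above Ctrl+I/R. PT-KO+I/R was 2.61-fold higher than Ctrl+I/R (log2 fold change 1.38, SE 0.27, adjusted p = 0.00442) and 10.6-fold higher than PT-KO (3.41, SE 0.22, adjusted p = 7.63e-07), and both calls held in every fit with 1 library left out.

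Ripk3 (ENSMUSG00000022221, chr14:55784995-55788865, minus strand), the kinase that activates MLKL, was at 0.855, 1.04 and 0.942 CPM in Ctrl, 1.45, 0.108 and 0.675 in PT-KO, 3.71, 3.86 and 2.21 in Ctrl+I/R and 4.11, 4.41 and 4.71 in PT-KO+I/R. Each injured library was above each sham library. PT-KO+I/R was 6.0-fold higher than PT-KO (log2 fold change 2.58, SE 0.54, adjusted p = 0.00192). With 1 library left out the log2 fold change ran from 2.04 to 3.51, and each fit kept the call. The injured groups did not overlap but their difference did not pass the test (0.42, SE 0.26, adjusted p = 0.21).

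Ripk1 (ENSMUSG00000021408, chr13:34002363-34037147, plus strand), the kinase at the top of the pathway, differed least between the injured groups. It was at 45.2, 47.6 and 42.9 CPM in Ctrl+I/R and at 54.1, 55.9 and 54.1 CPM in PT-KO+I/R, against 36.1 to 39.9 CPM in Ctrl and 40.8 to 41.8 CPM in PT-KO. The call against Ctrl+I/R (log2 fold change 0.27, SE 0.088, adjusted p = 0.0371) was lost with library totals (0.061, adjusted p = 0.642) and with DESeq2 (adjusted p = 0.0675). It was also lost without Ctrl+I/R library 1 (adjusted p = 0.107) or 4 (0.096) and without PT-KO+I/R library 2 (0.0587), 3 (0.103) or 4 (0.0892). Exons of Ripk1 overlap those of Serpinb6a on the opposite strand, which reached 2704 counts, and the strand setting of the counting is not given in the sources used here.

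**Figure D2:**
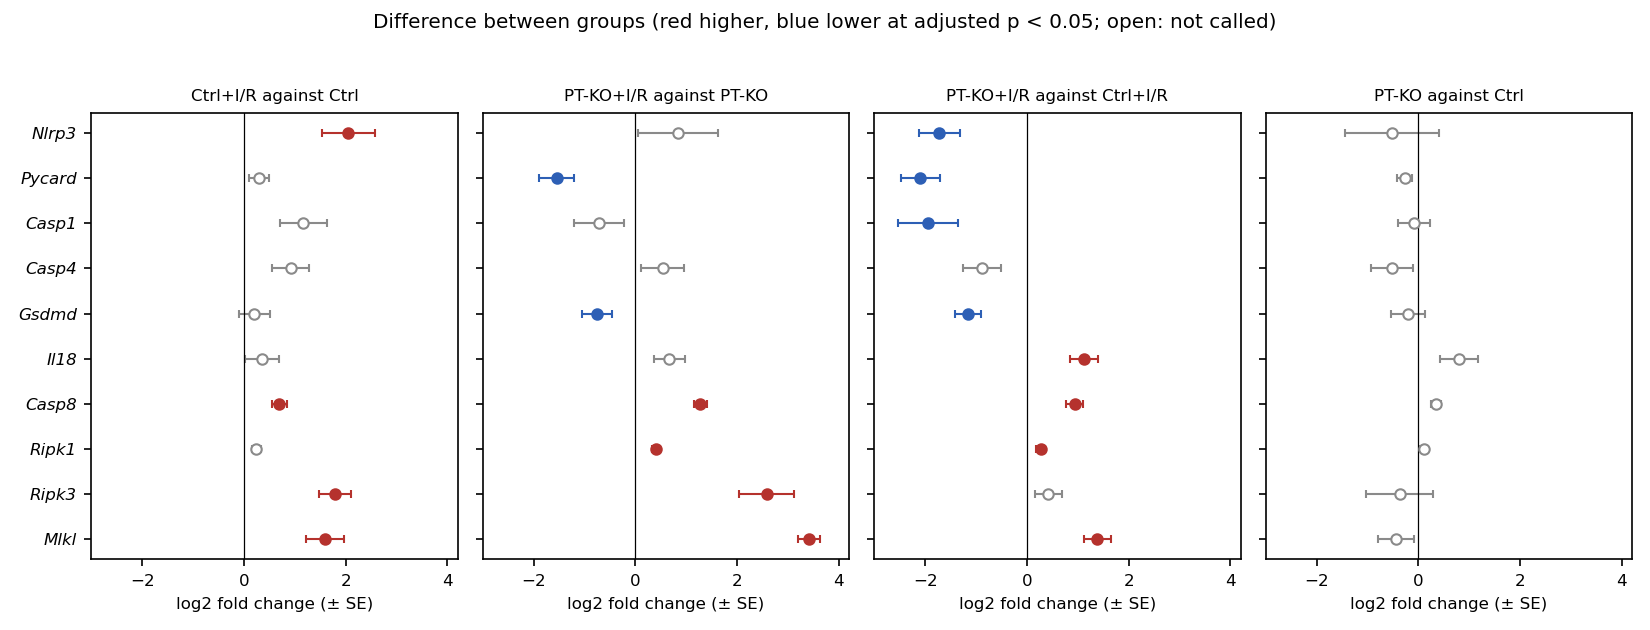
Difference between groups for each of the 10 genes in 4 comparisons. The x axis is the log2 fold change with its SE, red points were called higher, blue points were called lower and open points did not pass an adjusted p of 0.05. Between the injured groups, Nlrp3, Pycard, Casp1 and Gsdmd lie left of 0 and Il18, Casp8, Ripk1 and Mlkl lie right of it.

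The response to injury was compared within each genotype. In Ctrl mice, 4 of the 10 genes were higher after I/R and none was lower, where 11.4% of the 15567 genes tested were called higher and 7.97% lower. Library totals moved the split over all genes from 1778 higher and 1241 lower to 2346 and 766, and still called 4 of the 10. The 4 genes were Nlrp3 (log2 fold change 2.05, SE 0.52, adjusted p = 0.0358), Ripk3 (1.80, SE 0.31, adjusted p = 0.0142), Mlkl (1.59, SE 0.38, adjusted p = 0.0308) and Casp8 (0.70, SE 0.15, adjusted p = 0.0227). Casp1 and Ripk1 did not overlap between the groups either, at 1.17 (SE 0.46, adjusted p = 0.105) and 0.24 (SE 0.092, adjusted p = 0.0969), where 43.7% of all genes tested did not overlap. With 1 library left out Casp1 ran from 0.54 to 1.43 and was not called in any of these fits. The number of calls in this comparison moved with single libraries, over all genes and among the 10 alike. Leaving out Ctrl library 1 or 2 or Ctrl+I/R library 1 left no gene of the 10 called and 2.39%, 2.56% and 5.28% of all genes, where the full fit called 19.4%. Without Ctrl library 3 or Ctrl+I/R library 2 it was 2 of the 10 and 14% and 10.2% of all genes, and without Ctrl+I/R library 4 it was 5 and 25%. A fit to all 12 libraries called 5 of the 10 and 30.5% of 16168 genes. With sex added to that fit none of the 10 was called and 12.5% of all genes, and 4 of the 10 had an unadjusted p under 0.05. Among the male libraries alone, 1 Ctrl library remained and was assumed to vary like the other groups. That fit called 0 of 16595 genes, with 2962 at an unadjusted p under 0.05, 4 of the 10 among them, so it could not tell the 10 genes from any others. The log2 fold changes among the male libraries were 1.75 for Nlrp3, 1.81 for Ripk3, 1.63 for Mlkl and 0.62 for Casp8. The part that sex had in these differences cannot be told apart from the spread between so few libraries.

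In PT-KO mice, 4 of the 10 genes were higher after I/R (Mlkl, Ripk3, Casp8 and Ripk1) and 2 were lower (Pycard and Gsdmd), where 32.9% of the 15155 genes tested were called higher and 32.7% lower. Ripk1 rose by 0.40 (SE 0.077, adjusted p = 0.00116). Nlrp3, with 0 to 12 counts in PT-KO, was at 0.83 (SE 0.79, adjusted p = 0.376), and Casp1 at -0.72 (SE 0.49, adjusted p = 0.222), which was called without PT-KO+I/R library 2 (-1.28, adjusted p = 0.0383). The comparisons within Ctrl and within PT-KO share no library. The difference between them was tested as an interaction in 1 fit to the 12 libraries, which called 14.3% of 16168 genes higher and 16.4% lower (2305 and 2648 genes, or 1591 and 2997 with library totals). Among the 10 genes, the response to I/R was higher in PT-KO for Mlkl (difference of log2 fold changes 1.84, SE 0.46, adjusted p = 0.0105) and Casp8 (0.59, SE 0.21, adjusted p = 0.0469) and lower for Pycard (-1.83, SE 0.43, adjusted p = 0.00793). The Mlkl and Pycard calls held in each of 12 fits with 1 library left out and among the male libraries (1.80, adjusted p = 0.0319, and -2.08, adjusted p = 0.0374). The Casp8 call held in 3 of the 12, those without Ctrl+I/R library 2, PT-KO library 2 or PT-KO+I/R library 3. In the other 9 its adjusted p was up to 0.12, and it was not called among the male libraries (0.68, adjusted p = 0.115). Gsdmd was called only without Ctrl library 1 (-1.27, adjusted p = 0.0458), and Casp1 only without Ctrl+I/R library 2 (-2.11, adjusted p = 0.0394) or PT-KO+I/R library 2 (-2.43, adjusted p = 0.0239).

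Without injury, none of the 10 genes passed the edgeR test in PT-KO against Ctrl, which called 0% of 15291 genes higher and 0% lower. Over all genes 2573 had an unadjusted p under 0.05 and DESeq2 called 448, none of them among the 9 of the 10 genes to which it gave an adjusted p. Casp8 (0.35, SE 0.099, adjusted p = 0.207) and Ripk1 (0.10, SE 0.077, adjusted p = 0.521) did not overlap between the groups, nor did 21% of all genes tested. Casp8 was called without Ctrl library 3 (0.40, adjusted p = 0.0466), a fit that set 2 female against 3 male libraries and called 1930 of 15597 genes (12.4%).

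Within a library, the ratio of 2 genes does not depend on the scaling. The pairs shown here were chosen after their values were seen and are given as a description. Casp8 had 2.46 to 3.66 counts for each count of Pycard in Ctrl, 4.04 to 5.17 in PT-KO and 2.72 to 5.82 in Ctrl+I/R. In PT-KO+I/R it had 17.3, 32.3 and 70.5. Mlkl had 0.323 to 0.745 counts for each Gsdmd count in Ctrl, 0.346 to 0.547 in PT-KO, 1.07 to 1.79 in Ctrl+I/R and 5.75 to 12.1 in PT-KO+I/R. For both pairs the 3 PT-KO+I/R libraries were above the other 9.

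**Figure D3:**
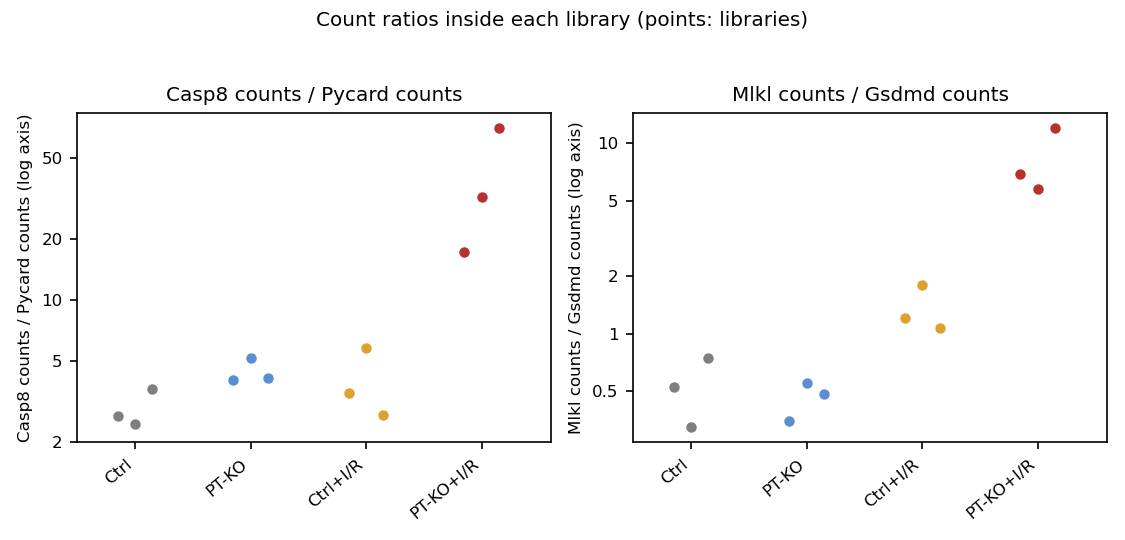
Counts of Casp8 for each count of Pycard and counts of Mlkl for each count of Gsdmd, by group. The y axes are logarithmic, and points are libraries. The PT-KO+I/R libraries are at 17.3 to 70.5 for Casp8 over Pycard and at 5.75 to 12.1 for Mlkl over Gsdmd, above all other libraries.

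Levels of different genes were compared as CPM per kilobase of the union of annotated exons, a length that counts exons of every annotated transcript. In Ctrl, Casp8 was highest with 9.01 ± 0.636 CPM per kilobase (SD, n = 3), then Ripk1 with 4.60 ± 0.238, Pycard with 2.38 ± 0.331, Gsdmd with 1.75 ± 0.645, Il18 with 1.19 ± 0.364 and Mlkl with 0.926 ± 0.400. Casp1 followed with 0.694 ± 0.126, Casp4 with 0.486 ± 0.0936, Ripk3 with 0.413 ± 0.0405 and Nlrp3 with 0.118 ± 0.0769. The ranges of neighbours overlapped from Pycard down to Casp1 and between Casp4 and Ripk3. In PT-KO+I/R the order was Casp8 with 28.0 ± 4.47 CPM per kilobase, Mlkl with 7.37 ± 1.68, Ripk1 with 6.55 ± 0.123, Il18 with 3.30 ± 0.629 and Ripk3 with 1.92 ± 0.131. Gsdmd with 0.905 ± 0.15, Pycard with 0.700 ± 0.422, Casp4 with 0.501 ± 0.141, Casp1 with 0.432 ± 0.278 and Nlrp3 with 0.148 ± 0.0613 made up the lower end. There Mlkl and Ripk1 overlapped, as did neighbours from Gsdmd down to Casp1. The necroptosis kinases and Mlkl had higher means than the pyroptosis genes other than Il18 in PT-KO+I/R, while in Ctrl the means of Ripk3 and Mlkl were below those of Pycard and Gsdmd.

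The rest of both pathways was read from 6 lists of 102 genes. Between the injured groups, 27 of the 86 genes tested were higher and 24 lower, shares of 31.4% and 27.9% beside 22.5% and 24.4% over all genes tested. With library totals these became 16 and 32, and with 1 library left out 17 to 27 were higher and 18 to 26 lower, the 17 being without PT-KO+I/R library 4. The counts of each list are a description, and the difference between lists was not tested. With library totals the inflammasome list again had 9 lower and 3 higher, the death receptor list went from 12 higher and 3 lower to 6 and 5, and the necroptosis regulators went from 8 higher and 1 lower to 4 and 4. Of 17 inflammasome sensors and partners tested, 9 were lower and 3 higher (median log2 fold change -1.11, against -0.0049 over all genes). Among the 9 were Nlrp6, an epithelial sensor, at 69.7, 30.4 and 76.3 CPM in Ctrl+I/R and 5.73, 5.52 and 3.55 in PT-KO+I/R (log2 fold change -3.59, SE 0.38, adjusted p = 0.000437). Gbp5, an interferon-induced guanylate-binding protein that promotes inflammasome assembly, was at 7.95, 3.92 and 4.05 CPM against 0.513, 0.801 and 0.451 (-3.13, adjusted p = 0.000984). Nlrp1b, another sensor, went from 0.759 to 1.97 CPM to 0 to 0.178 CPM (adjusted p = 0.00703). The 3 that were higher, named here after their values were seen, were the NLRP3 partner Nek7 (1.05, adjusted p = 0.000608), Txnip (1.22, adjusted p = 0.00357) and Naip1 (1.26, adjusted p = 0.016).

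Of 9 other gasdermins, caspases and membrane rupture genes tested, 4 were lower and 1 higher (median -0.23). The granzymes Gzmb and Gzma, of cytotoxic lymphocytes, had no count in any PT-KO+I/R library and stood at 0.696 to 5.67 and 0.886 to 4.51 CPM in Ctrl+I/R. Casp12 was lower (-1.53, adjusted p = 0.00682). Ninj1, which ruptures the membrane downstream of gasdermin pores, was at 62.5, 61.7 and 55.5 CPM in Ctrl+I/R and 60.3, 53.6 and 57.3 in PT-KO+I/R and was not called. Of 9 genes of the interleukin-1 family tested, the decoy receptor Il1r2 was higher, at 6.67, 8.37 and 10.3 CPM against 1.30, 1.93 and 0.443 (2.75, adjusted p = 0.00177), and the receptor antagonist Il1rn was lower (-1.02, adjusted p = 0.0329), while the other 7 were not called (median -0.43).

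Of 25 genes of the death receptor complex tested, 12 were higher and 3 lower (median 0.41). Birc3, which encodes the ubiquitin ligase cIAP2, was higher (0.83, adjusted p = 0.039), as was the linear ubiquitin deubiquitinase gene Otulin, at 35.1, 35.9 and 31.5 CPM against 18.2, 18.9 and 18.5 (0.88, adjusted p = 0.000648). The ligand Tnfsf10 (TRAIL) was lower, at 7.27, 3.56 and 5.48 CPM against 44.7, 26.2 and 38.8 (-2.79, adjusted p = 0.000452). Of the 16 other necroptosis sensors, regulators and repair genes, 8 were higher and 1 lower (median 0.36). The 1 was Zbp1, a nucleic acid sensor that engages RIPK3 (-2.15, adjusted p = 0.00535). Chmp4b, of the ESCRT-III machinery that repairs membranes under attack by MLKL, was at 217, 204 and 213 CPM against 111, 136 and 106 (0.84, adjusted p = 0.00115), and the inositol phosphate kinase gene Itpk1 was also higher (0.84, adjusted p = 0.00544). Of 10 interferon and NF-kB transcription factors, 6 were lower and 2 higher (median -0.55), among them Irf7 (-1.84, adjusted p = 0.000543) and Irf1 (-1.07, adjusted p = 0.0144). Rela was among the 2 that were higher (0.96, adjusted p = 0.00595), the other being Irf8 (0.65, adjusted p = 0.0415).

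**Figure D4:**
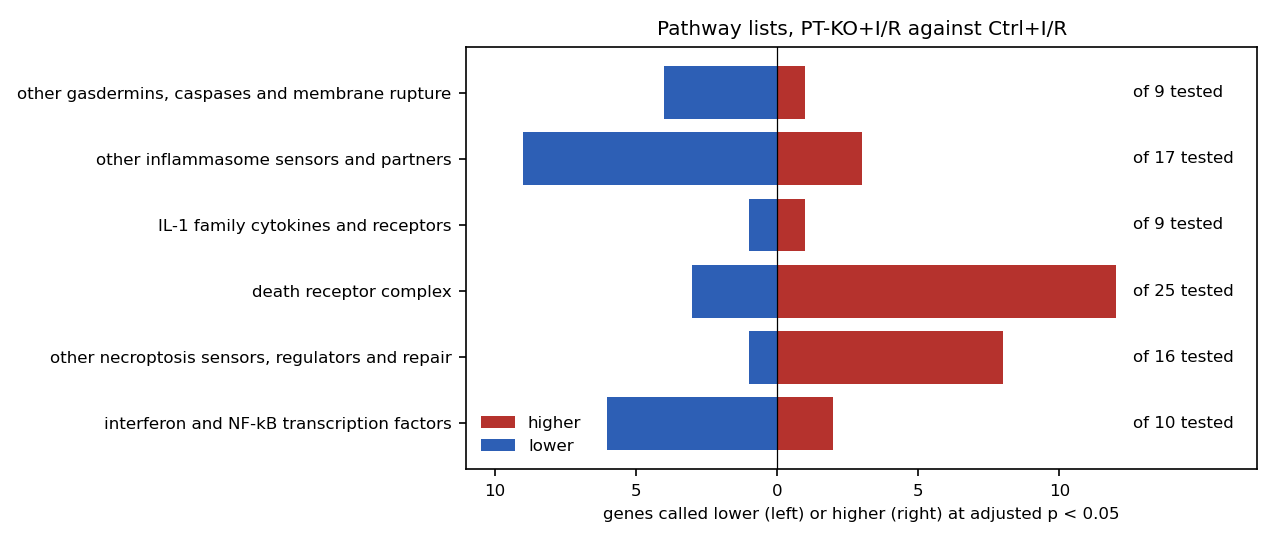
Genes of 6 pathway lists called in PT-KO+I/R relative to Ctrl+I/R. The x axis counts genes called lower (left) and higher (right), and the number tested stands beside each bar. Inflammasome partners had 9 lower and 3 higher of 17, and the death receptor complex had 12 higher and 3 lower of 25, or 6 and 5 with library totals.

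Within genotypes, the same lists gave 10 genes higher and 1 lower of 88 tested in Ctrl, shares of 11.4% and 1.14% where all genes had 11.4% and 7.97%, so the share higher was that of all genes. With Ctrl library 1 or 2 or Ctrl+I/R library 1 left out only 2 were higher, dropping Ctrl library 3 gave 5, dropping Ctrl+I/R library 2 gave 6, and 22 were higher when Ctrl+I/R library 4 was dropped. In PT-KO 38 were higher and 19 lower of 81 tested, shares of 46.9% and 23.5% beside 32.9% and 32.7% over all genes. In Ctrl the 10 included Il1rn, which rose from 0.0554 to 0.151 CPM to 3.35 to 7.94 CPM (adjusted p = 0.00265), Il33 (1.47, adjusted p = 0.0182) and Tnf (1.92, adjusted p = 0.029). Among the male libraries no gene of any kind was called in that comparison, these lists included. In PT-KO, Nlrp6 fell by 4.25 on the log2 scale (adjusted p = 3.74e-08), Tnfsf10 fell by 4.10 (adjusted p = 2.29e-07), and Birc3 (2.32, adjusted p = 1.16e-06) and Tlr4 (1.34, adjusted p = 0.000109) rose. The interaction was called for 19 genes higher and 16 lower of 90 tested (21.1% and 17.8%, beside 14.3% and 16.4% over all genes), among them Nlrp6 (-3.58, adjusted p = 0.000125), Tnfsf10 (-3.35, adjusted p = 6.72e-05) and Chmp4b (0.84, adjusted p = 0.00156), and for 10 and 8 of 93 among the male libraries, a fit that called 14.4% of all genes. None of 82 was called in PT-KO against Ctrl, by edgeR in the main fit. DESeq2 called 1 higher and 5 lower of 82, where it called 1.7% of all genes. Without the low-count filter edgeR called 1 and 4 of 96 (1.47% of all genes), and without Ctrl library 3 it called 3 and 4 of 83 (12.4%). The replicate block gave 3 and 9 of 82 (9.01%).

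Promoters of 9 of the 10 genes were read from RefSeq sequence on GRCm38.p6, 12 windows of 300 bases from 250 before to 50 after a transcription start. They were searched on both strands for interferon and NF-kB sites, since Irf7 and Irf1 were lower and Rela was higher in PT-KO+I/R. The AP-1 site, of a family not among the factors above, was searched as well. The core of the interferon-stimulated response element, TTTCNNTTT, was in 10.6% of all 32851 promoter windows and in 4 of the 12, those of Nlrp3, Ripk1 and both overlapping windows of Casp4. The gamma-activated site TTCNNNGAA was in 8.3% of all windows and in 1 of Ripk1, the NF-kB consensus was in 8.46% and in 3 (Nlrp3 and both of Casp4), and the AP-1 site TGANTCA was in 7.81% and in none of the 12. The 250 bases before the start are shown for Casp4 and Nlrp3, the genes with both an interferon element and an NF-kB match, and for Mlkl and Pycard, the genes with the firmest interaction, in which these letters were not found. Capitals mark matches, and the longest run of capitals in Casp4 holds 2 NF-kB matches that overlap.
Casp4, chr9:5308599-5308848, plus strand: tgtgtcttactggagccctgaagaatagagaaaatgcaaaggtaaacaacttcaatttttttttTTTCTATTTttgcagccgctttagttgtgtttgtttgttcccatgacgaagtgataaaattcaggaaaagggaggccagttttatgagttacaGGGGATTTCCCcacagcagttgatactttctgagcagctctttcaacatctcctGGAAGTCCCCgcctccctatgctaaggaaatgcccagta
Nlrp3, chr11:59541319-59541568, plus strand: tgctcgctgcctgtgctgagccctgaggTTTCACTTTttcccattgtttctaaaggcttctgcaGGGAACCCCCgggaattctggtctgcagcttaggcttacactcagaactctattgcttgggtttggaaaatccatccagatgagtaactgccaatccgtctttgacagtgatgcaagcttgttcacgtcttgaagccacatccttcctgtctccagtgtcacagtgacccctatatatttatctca
Mlkl, chr8:111338206-111338455, minus strand: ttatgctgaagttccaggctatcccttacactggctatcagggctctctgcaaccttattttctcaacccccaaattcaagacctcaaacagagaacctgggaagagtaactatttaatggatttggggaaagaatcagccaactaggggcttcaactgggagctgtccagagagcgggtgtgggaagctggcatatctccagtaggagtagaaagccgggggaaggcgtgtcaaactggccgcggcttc
Pycard, chr7:127993868-127994117, minus strand: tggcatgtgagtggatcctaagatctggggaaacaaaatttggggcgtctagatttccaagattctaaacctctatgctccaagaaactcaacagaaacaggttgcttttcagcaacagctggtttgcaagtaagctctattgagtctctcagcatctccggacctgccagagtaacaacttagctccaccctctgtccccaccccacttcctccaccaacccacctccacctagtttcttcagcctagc
Sequences are 5′ to 3′ on the strand of the gene. The genes with matches went in different directions after I/R in PT-KO against Ctrl, Nlrp3 lower, Ripk1 higher and Casp4 not called.

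Between the injured groups, most macrophage and monocyte markers were lower in the knockout, as were Nlrp3, Pycard, Casp1 and Gsdmd. The summed level of 10 macrophage markers was 140 to 260 CPM in Ctrl+I/R and 64.1 to 72.6 CPM in PT-KO+I/R, with 7 lower, 1 higher and 2 not called. Lyz2 went from 41.8 to 99.6 CPM to 3.29 to 5.73 CPM and Csf1r from 24.5 to 41.2 CPM to 11.9 to 14.9 CPM. The defining marker Adgre1, which encodes F4/80, went from at least 5.85 CPM in each Ctrl+I/R library to 0.193 to 0.513 CPM. The 1 that was higher, named after its values were seen, was Cd68, a lysosomal marker of macrophages, at 17.95, 14.3 and 14.2 CPM in Ctrl+I/R and 20.1, 28.7 and 29.98 CPM in PT-KO+I/R (log2 fold change 0.76, adjusted p = 0.0117). Cd163 (1.69, adjusted p = 0.099) and Mrc1 (-0.82, adjusted p = 0.062) were the 2 not called. The 4 monocyte markers summed to 39.7 to 106 CPM in Ctrl+I/R and 28.1 to 35.4 CPM in PT-KO+I/R, with 3 lower. Pycard had 1.14 to 1.60 counts for each Adgre1 count in Ctrl+I/R and 4.90 to 8.67 in PT-KO+I/R. That ratio was chosen after the values were seen. In PT-KO+I/R it rests on few Adgre1 counts, at 0.193 to 0.513 CPM. The part of macrophages and monocytes in the lower levels of Nlrp3, Pycard, Casp1 and Gsdmd was not tested.

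Neutrophil markers went the other way, with 8 genes summing to 10.2 to 43.1 CPM in Ctrl+I/R and 57.7 to 91.4 CPM in PT-KO+I/R, of which 5 of 7 tested were higher and none lower. S100a9 was at 3.86 to 15.0 CPM and 21.7 to 37.4 CPM, while Ly6g was at 0.257 CPM or less in every library. The 9 proximal tubule markers summed to 4401 to 9831 CPM in Ctrl+I/R and 2766 to 3354 CPM in PT-KO+I/R, with 6 lower and none higher. The part of these cells in the higher levels of Mlkl, Casp8, Ripk1 and Il18 was not tested. T and NK cell markers summed to 5.57 to 16.9 CPM and 0.401 to 0.774 CPM, B cell markers to 1.08 to 2.82 CPM and 0 to 0.356 CPM, and dendritic cell markers to 13.3 to 22.0 CPM and 8.19 to 9.995 CPM. Distal nephron markers were at 1727 to 4380 CPM and 2266 to 2755 CPM, endothelial markers at 323 to 344 CPM and 383 to 404 CPM, fibroblast markers at 344 to 423 CPM and 109 to 190 CPM, and podocyte markers at 350 to 385 CPM and 357 to 409 CPM in the same order. Of 8 distal nephron markers 4 were lower and 0 higher, though Umod, the highest of them, was at 1306 to 2880 CPM and 1870 to 2317 CPM. Of 5 endothelial markers 3 were higher and 1 lower. Of 5 fibroblast markers 2 were lower and 0 higher, and of 4 podocyte markers 1 was lower and 0 higher.

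**Figure D5:**
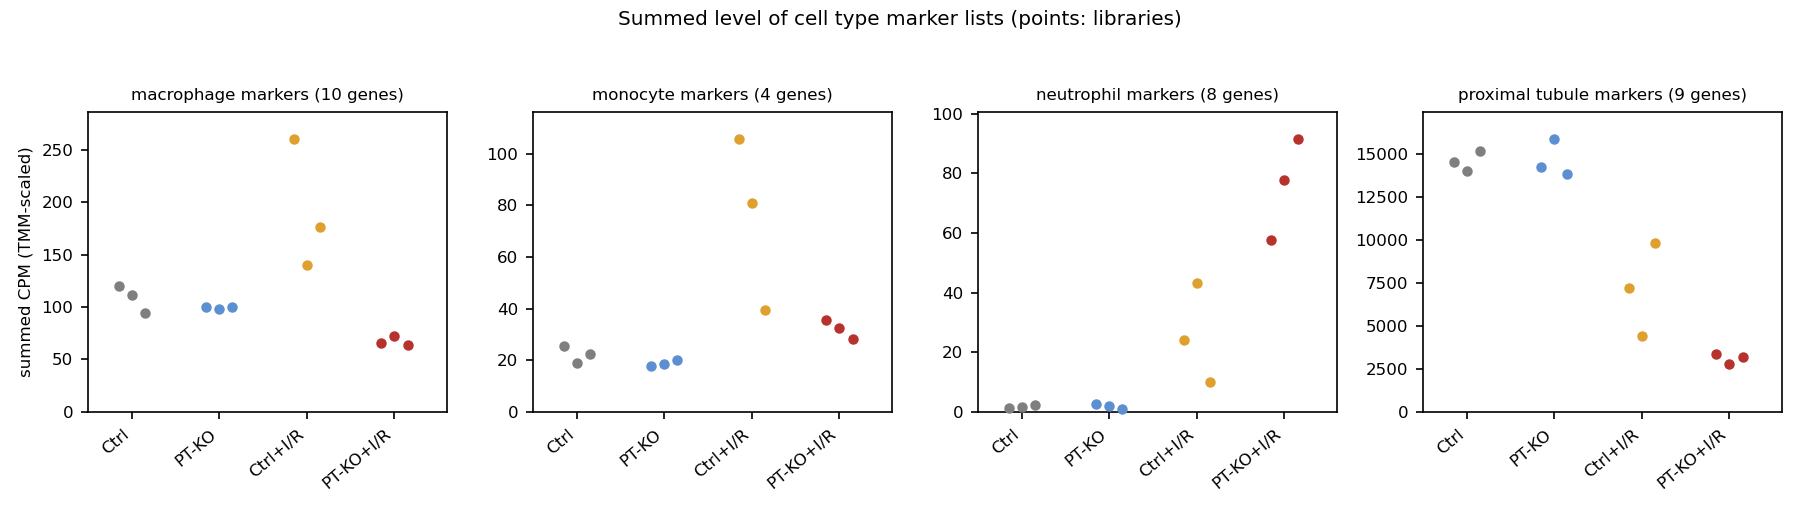
Summed CPM of marker genes of 4 cell types in the 12 libraries. The y axes start at 0, and points are libraries. Macrophage markers in PT-KO+I/R (64.1 to 72.6 CPM) lie below those in Ctrl+I/R (140 to 260 CPM), and neutrophil markers (57.7 to 91.4 CPM) lie above (10.2 to 43.1 CPM).

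For each of the 10 genes, the gene whose log2 CPM followed it most closely over the 12 libraries was looked up among the other genes with a mean of at least 1 CPM. Casp8 was followed by Tpp2 (Pearson r = 0.994), Ripk1 by Dusp5 (0.985), Mlkl by Pgm2 (0.985) and Ripk3 by Krt19 (0.963), a keratin of injured tubular epithelium. Pycard was followed by Nxpe4 (0.977), Casp1 by B2m (0.952), Casp4 by Ifnar2 (0.942), Gsdmd by St6galnac6 (0.932), Nlrp3 by Recql4 (0.909) and Il18 by Crcp (0.967). Each r is the highest of 14343 genes searched, the 12 libraries share the 4 groups, and the values are a description.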

How the data were processed

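RNA-seq of kidney cortex was analysed from 12 libraries, 3 in each of 4 groups. The authors deposited 1 table of raw read counts for 55487 Ensembl genes, of which 55141 matched a symbol; the submitters' processing notes name HISAT2 2.0.4 and mm10, and the counting program, annotation and strand setting are not given in the sources used here. The labels do not say that libraries came from separate mice, so p-values measure the spread between these libraries. One Ctrl column is numbered 3, a number no Ctrl title carries, and was used as a replicate of Ctrl. No row was without a gene.

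The 10 genes and the pathway and marker lists were chosen with earlier results of these data known. Each comparison of 2 groups was fitted to its 6 libraries, and the interaction to all 12, with edgeR 4.0.16 in R 4.3.3 (TMM, filterByExpr, glmQLFit and glmQLFTest, Benjamini-Hochberg adjustment over all genes tested). All 10 genes passed the filter in every comparison. The step was tested on simulated data. Named genes were the 10 and, from each pathway list and comparison, at most 3 called genes with the largest change. The 2 highest genes of each marker list and the closest gene to each of the 10 over the 12 libraries were added. Genes named outside this rule include Ninj1, Nek7, Txnip, Adgre1, Cd68, Cd163, Mrc1 and Ly6g. Gfer, Xist and Ddx3y were named as checks of the labels. DESeq2 1.42.0, library totals, other count filters, a replicate block, sex as a covariate and leaving out each library were alternatives, and a fit to the male libraries was added after seeing the data. Some listed genes are not reported here. Library pairs within a group differed by more than sampling noise. Genes were placed on GRCm38 and promoters taken from RefSeq (GRCm38.p6). Depth limits precision, and Nlrp3, with 0 to 59 counts a library, had SEs of 0.40 to 1.08 on the log2 scale over the 5 comparisons.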

Additional observations from a re-analysis of the deposited data

Results flagged for a closer look

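Of the 10 genes, 3 had a response to I/R that differed between the genotypes by the interaction test of edgeR, fitted to 12 libraries, which called 30.6% of all genes, so the count itself is no result about the 10. The difference of log2 fold changes, PT-KO minus Ctrl, was 1.84 for Mlkl (adjusted p = 0.0105), -1.83 for Pycard (adjusted p = 0.00793) and 0.59 for Casp8 (adjusted p = 0.0469). Mlkl was higher in each of 3 PT-KO+I/R libraries than in any Ctrl+I/R library, and Pycard was lower in each of 3. The interaction includes the 2 female Ctrl libraries, and without them the adjusted p was 0.0319 for Mlkl, 0.0374 for Pycard and 0.115 for Casp8. The Casp8 call held in 3 of 12 fits with 1 library left out.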

How the results depend on the processing

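With 1 library left out, 308 log2 fold changes of the 10 genes kept their direction and call, 38 lost a call, 8 gained one and 5 changed sign. Under the other settings the numbers were 315, 32, 3 and 5. In Ctrl+I/R against Ctrl, 4 of the 10 genes were called (19.4% of all genes). A fit to all 12 libraries called 5 (30.5%) and that fit with sex as a covariate 0 (12.5%). The count was 0 among the male libraries, where no gene at all was called, and 0 to 5 with 1 library left out, where 2.39% to 25% of all genes were called. Between the injured groups, 8 were called, but 5 with at least 10 counts in every library, where 8 genes were tested. The fit with the replicate block, which takes the label numbers as blocks, called 1 of the 10 in that comparison (Mlkl) and 1 in the interaction (Mlkl) against 3 without it, while calls over all genes went from 46.9% to 11% and from 30.6% to 19.9%. Between the injured groups, Ctrl+I/R library 1 and PT-KO+I/R library 3 each had a block to itself, so only the libraries numbered 2 and 4 were compared within blocks. Same-numbered libraries did not deviate together (12 pairs, median r = -0.0194, range -0.224 to 0.185), so the numbers were not read as pairs. In PT-KO against Ctrl, 0 of the 10 were called, and 0 to 1 with 1 library left out, the 1 (Casp8) being without Ctrl library 3, a fit that called 12.4% of all genes. The changes of sign were all in that comparison, among genes not called. Ripk1 was at -0.025 with library totals, Gsdmd at 0.35 and Casp1 at 0.064 with sex as a covariate, and Gsdmd at 0.35 and Casp1 at 0.063 among the male libraries. With 1 library left out the log2 fold changes ran from -0.49 to 0.12 for Gsdmd, -0.27 to 0.078 for Casp1, -1.68 to 0.11 for Nlrp3 and -1.29 to 0.17 for Ripk3. The causes were not tested. Nlrp3 had 0 to 59 and Casp1 7 to 87 counts a library.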
